A study of Homo sapiens with 6 samples.

Results

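The genes described here encode the aminoacyl-tRNA synthetases, the enzymes that load each amino acid onto its tRNA before protein synthesis. They comprised 19 cytosolic synthetases, 16 mitochondrial synthetases and the 3 scaffold proteins AIMP1, AIMP2 and EEF1E1, in all 38 of 19785 protein-coding genes. They were chosen by name and not by any measured value, though earlier results of these data were known. Myc binding was measured by chromatin immunoprecipitation sequencing (ChIP-seq) in MDA-MB-231, a human triple-negative breast cancer cell line, and in TKO, the same line with TXNIP deleted by CRISPR/Cas9. TXNIP, thioredoxin interacting protein, is an arrestin-like protein that restrains glucose uptake, and the comparison asked how its loss affects where Myc binds. Parental and TKO cells grew in the same medium without other treatment, and each had 2 Myc libraries with a peak list of its own. TKO cells were isolated from single cells, so TKO differs from parental cells by clone as well as by TXNIP. Peak lists do not measure TXNIP itself, so the deletion could not be checked here.

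Myc binds DNA as a dimer with MAX, preferentially at the E-box CACGTG, and it is known for raising the expression of genes for ribosomes and translation. The cytosolic synthetases feed the ribosomes of the cytosol. The mitochondrial synthetases are encoded in the nucleus, imported, and serve the separate ribosomes of mitochondria. GARS1 and KARS1 supply both compartments. Many cytosolic synthetase genes are also induced by ATF4 when amino acids run short, through the C/EBP-ATF response element (CARE), whose core is TGATGNAA.

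Promoter peaks had their summit at most 1 kb from an annotated transcription start (TSS) of the gene, and the strongest such peak stood for the gene. Strength is given as summit RPM, the reads at the summit per M reads of depth, recovered from the authors' fold enrichment and p-value, or as the percentile of a peak by fold within its own list. The lists differ in length, so a percentile ranks peaks within a list and is not a measure of change between cell lines. The lists held 3720 and 5719 peaks in parental replicates 1 and 2, and 27213 and 25887 in TKO replicates 1 and 2. Their depth, solved from the lists on the assumption that reads were extended to the narrowest peak width, was 26.4, 22.2, 19.9 and 13.0 M reads in the same order. Under that assumption the longer lists came from the shallower libraries. The lowest background at any summit, which does not use these widths, was 1.37, 1.241, 1.345 and 0.9706 reads. It was higher in TKO replicate 1 than in parental replicate 2. Values of 4 libraries below are always given in this order. Where no peak was called, no reads could be recovered, so weak binding and no binding cannot be told apart there. Binding in more cells and more binding per cell cannot be told apart either.

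To show where Myc summits fell relative to known sites, short genomic windows are given before the values. The members with a promoter peak in all 4 libraries and an E-box within 50 bp of the summit in TKO replicate 1 were VARS1, EARS2 and EEF1E1. Their E-boxes, in capitals below, are written 5′ to 3′ on the strand of the gene from build hg19.
VARS1, chr6:31763477-31763506, minus strand: caaaggggggaaCACGTGggcgccggctgc
EARS2, chr16:23568669-23568698, minus strand: cagggagaagccCACGTGtgctattccatc
EEF1E1, chr6:8102529-8102558, minus strand: tacccagctcccCACGTGtctgcgccgcta
The E-box of VARS1, the valine enzyme, lay in the 5′ untranslated region, 37 bp after the TSS, and 0, 18, 25 and 7 bp from the summits of the 4 libraries. That of EARS2, the mitochondrial glutamate enzyme, lay 13 bp before the TSS and 35, 70, 44 and 104 bp from the summits. That of EEF1E1 lay in an intron, 237 bp after the TSS and 28, 9, 35 and 154 bp from the summits.

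CARE was more frequent than an E-box in the cytosolic synthetase promoters. An E-box was present in 2 of 19, while the core TGATGNAA was found, on either strand, between 250 bp before and 50 bp after the TSS of 8 of 19 cytosolic members (42.1%). It was present in 1 of 16 mitochondrial members (6.25%), in 0 of 3 scaffold genes, and in 2.48% of 19507 promoters. Windows around it are shown, a choice made after their values were seen, because the letters inside the element were so alike; the element is in capitals and sets the strand.
AARS1, chr16:70323578-70323607, plus strand: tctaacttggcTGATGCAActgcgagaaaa
CARS1, chr11:3078637-3078666, plus strand: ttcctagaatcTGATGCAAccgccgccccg
GARS1, chr7:30634450-30634479, minus strand: ggctcggagcaTGATGAAAtcgccgcgtaa
IARS1, chr9:95055974-95056003, plus strand: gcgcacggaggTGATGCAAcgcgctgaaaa
MARS1, chr12:57881836-57881865, minus strand: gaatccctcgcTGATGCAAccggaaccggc
NARS1, chr18:55289036-55289065, minus strand: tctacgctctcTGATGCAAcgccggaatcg
TARS1, chr5:33441062-33441091, minus strand: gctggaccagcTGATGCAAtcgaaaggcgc
YARS1, chr1:33282938-33282967, minus strand: ccgagcccagcTGATGCAAcctggctggac
In 7 of these 8 promoters the element read TGATGCAA. Of all 19507 promoters 484 held the core TGATGNAA, and 128 held this form. As a share of all promoters in each list, the form was in 36.8% of cytosolic members and 0.656% of 19507. Within 20 bp of the TSS lay the elements of CARS1, IARS1, MARS1, NARS1, TARS1 and YARS1, and those of GARS1 and AARS1 lay further upstream, at -29 and -184 bp. At YARS1, the tyrosine enzyme, the element was 7, 3, 3 and 1 bp from the Myc summits. At MARS1, the methionine enzyme, the distances were 26, 61, 13 and 28 bp. At TARS1, the threonine enzyme, they were larger, at 241, 205, 178 and 238 bp. A match is a description of the letters, and binding of ATF4 was not measured.

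Every synthetase and scaffold gene had a Myc promoter peak in TKO cells, and most of them had one in parental cells. Parental replicates 1 and 2 had a promoter peak at 22 and 20 of 38 members (57.9% and 52.6%), where 12.2% and 12.9% of all protein-coding genes had one. TKO replicates 1 and 2 had one at 38 and 38 of 38 (100% in each), where the background was 49.1% and 49.7%. The group means were 21 ± 1.41 and 38 ± 0 members (SD, n = 2 each), a ratio of 1.81. The ranges did not overlap, and an exact two-sided permutation test returned p = 0.333, the lowest that a design of 2 against 2 can reach. In all 4 libraries 20 members had a peak (52.6%, background 9.32%), and in both TKO libraries 38 did (background 45.2%). A further 16 members (42.1%, background 29.8%) were called in TKO replicates 1 and 2 but not in parental cells, and KARS1 and QARS1 had one in all but parental replicate 2.

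The count of members depended on the length of the lists. When the strongest 3720 peaks by fold were taken from each list, 22, 19, 24 and 22 members had a promoter peak, and the ratio was 1.12 (exact permutation p = 0.667). Cytosolic members then numbered 14, 12, 14 and 13, and mitochondrial members 5, 4, 8 and 6. Among all protein-coding genes the shares were then 12.2%, 9.01%, 13.9% and 14.3%. Synthetase promoters that entered the shortened TKO lists without a peak in the shortened parental lists were CARS1, NARS2 and YARS2 in both TKO libraries and VARS2 in TKO replicate 1. In the other direction AIMP1 and QARS1 were missing from TKO replicate 1, and EPRS1, HARS1 and HARS2 from TKO replicate 2.

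**Figure D1:**
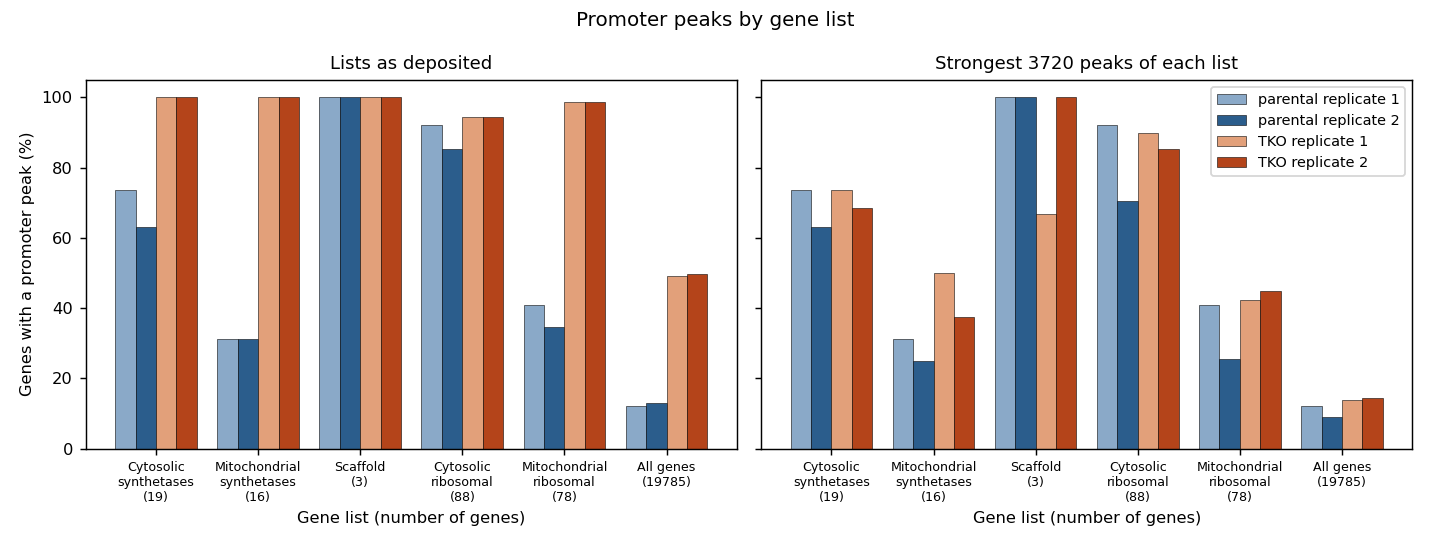
Share of genes with a Myc promoter peak (%, vertical axis) for each gene list and library (bars), with the number of genes in brackets; the left panel uses the lists as deposited and the right panel the strongest 3720 peaks of each. The TKO bars of cytosolic and mitochondrial synthetases stand at 100% on the left, and on the right they stand at 73.7% and 68.4% for cytosolic synthetases, beside parental bars of 73.7% and 63.2%, and at 50% and 37.5% for mitochondrial synthetases, beside 31.2% and 25%.

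In parental cells a larger share of cytosolic than of mitochondrial enzymes had a promoter peak, and in TKO cells all of both did. Of the 19 cytosolic members 14, 12, 19 and 19 had a promoter peak, with means of 13 ± 1.41 and 19 ± 0 (SD, n = 2 each; exact permutation p = 0.333). Of the 16 mitochondrial members 5, 5, 16 and 16 had one, with means of 5 ± 0 and 16 ± 0 (exact permutation p = 0.333). All 3 scaffold genes had one in each library. In all 4 libraries 12 of 19 cytosolic members (63.2%) and 5 of 16 mitochondrial members (31.2%) were bound, beside 9.32% of all genes. Bound in TKO cells alone were 5 of 19 (26.3%) and 11 of 16 (68.8%), beside 29.8% of all genes, so the cytosolic share was near the background. With lists of equal length the TKO shares were 73.7% and 68.4% for cytosolic and 50% and 37.5% for mitochondrial members. The ribosomal protein genes had the same order, with 75 of 88 cytosolic (85.2%) and 22 of 78 mitochondrial (28.2%) bound in all 4. These differences between lists of genes were not tested.

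YARS1 and IARS1 carried the strongest Myc peaks of the cytosolic synthetases. At YARS1 the summit held 100, 100, 190 and 154 reads, or 3.78, 4.51, 9.53 and 11.8 RPM. Its percentile within the lists was 91.4, 97.7, 99.8 and 99.9. In TKO replicate 1 the peak spanned chr1:33282423-33283232, and the summits of the 4 libraries fell within 8 bp of each other. At IARS1, the isoleucine enzyme, the values were 3.59, 3.29, 9.02 and 10.5 RPM and the percentile was 99.1, 98.9, 99.9 and 99.9. Both genes were therefore near the top of each list in parental as in TKO cells, and their TKO values lay above both parental values.

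TARS1 and LARS1, the threonine and leucine enzymes, followed. TARS1 had 2.38, 2.34, 5.67 and 8.74 RPM, and its mean in TKO was 3.05 times the parental mean. LARS1 had 1.67, 2.70, 6.12 and 5.52 RPM, with its parental replicates further apart than those of TARS1. FARSA and FARSB encode the subunits of the phenylalanine enzyme and lie on different chromosomes. FARSB had 1.97, 1.35, 4.71 and 4.22 RPM, with summits up to 451 bp apart because another peak was the strongest in parental replicate 2. FARSA had 1.40, 1.67, 3.36 and 3.53 RPM, and its percentile within each list was 27.8, 37.2, 95.6 and 93.5. The groups did not overlap at any of these 4 genes.

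GARS1 and KARS1, which supply both compartments, were both bound in TKO cells. GARS1, for glycine, had 1.21, 1.49, 4.31 and 4.30 RPM, with summits within 21 bp of each other. KARS1, for lysine, had 1.14 in parental replicate 1, no peak in parental replicate 2, and 3.61 and 4.07 in TKO. QARS1, the glutamine enzyme, had the same pattern of calls, with 1.06 in parental replicate 1 and 1.60 and 2.91 in TKO. MARS1 had the lowest parental values of the cytosolic enzymes, 0.643 and 0.947 RPM, and 2.26 and 2.53 in TKO, a ratio of the means of 3.01. Its percentile by fold in TKO was 98.9 and 98.4, with a local background of 1.34 and 0.971 reads.

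The remaining cytosolic members with parental peaks were NARS1, EPRS1, HARS1 and VARS1. NARS1, the asparagine enzyme, had 1.17, 1.08, 2.66 and 3.37 RPM. EPRS1, which joins the glutamate and proline enzymes in the same protein, had 1.06, 1.53, 3.26 and 2.68, with summits up to 369 bp apart. VARS1, with the E-box shown above, had 1.55, 1.26, 2.26 and 2.84, and its ratio of means, 1.81, was the lowest of the 20 members bound in all 4 libraries. HARS1 and HARS2, the cytosolic and mitochondrial histidine enzymes, start in opposite directions with 84 bp between their main start sites on chromosome 5. The same peak stood for both, with 1.36, 1.40, 3.11 and 3.14 RPM, so it counts in both classes. At each of these genes the parental and TKO values did not overlap.

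**Figure D2:**
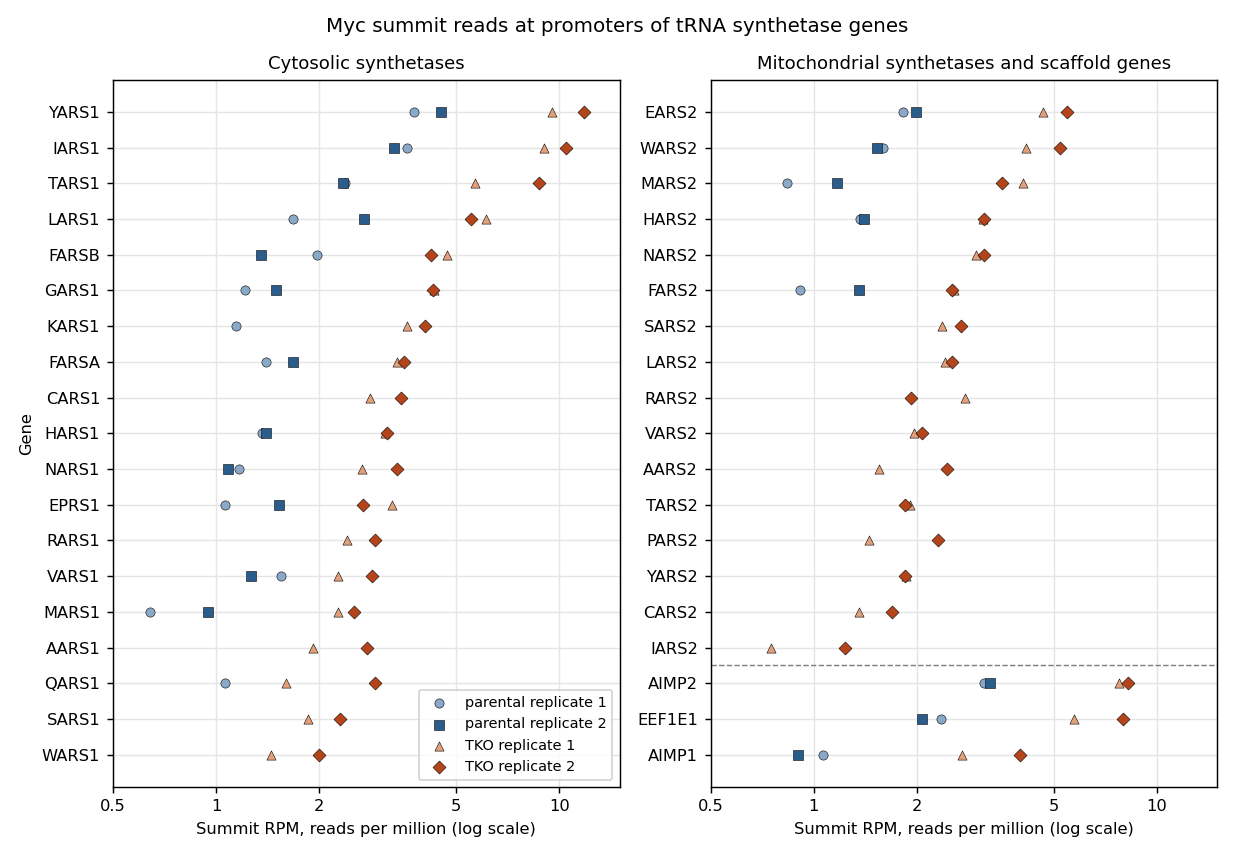
Summit RPM (horizontal, log scale) at the strongest promoter peak of each gene, with 1 point per library and no point where no peak was called; genes are ordered by their TKO mean within each class. Where parental points exist they all lie left of both TKO points, and genes without them range from IARS2 at 0.752 and 1.23 to CARS1 at 2.81 and 3.45 and NARS2 at 2.96 and 3.14, which lie among genes that have them.

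The 5 cytosolic enzymes with peaks in TKO alone were AARS1, CARS1, RARS1, SARS1 and WARS1, for alanine, cysteine, arginine, serine and tryptophan. Their values lay between 1.45 and 2.81 RPM in TKO replicate 1 and between 1.99 and 3.45 in replicate 2. CARS1 was the strongest, with 2.81 and 3.45 and a percentile of 89.2 and 92.4. SARS1 was among the weaker peaks of its lists, with a percentile of 22 and 33. AARS1, RARS1, SARS1 and WARS1 had no parental peak within 10 kb of a start site either, but CARS1 had 1 in each parental library within 5 kb.

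Among mitochondrial enzymes, EARS2 and WARS2 were the strongest. EARS2 had 1.82, 1.98, 4.66 and 5.45 RPM and a percentile of 86, 86.4, 99.7 and 98.4. WARS2, the tryptophan enzyme, had 1.59, 1.53, 4.16 and 5.22, at a percentile within each list of 26.6, 15.3, 97.8 and 97.2. MARS2, the methionine enzyme, had 0.833, 1.17, 4.06 and 3.53, and its ratio of means, 3.79, was the highest of the members bound in all 4 libraries. FARS2, the phenylalanine enzyme, had 0.908, 1.35, 2.56 and 2.53, but its summits were up to 706 bp apart, so these reads do not all come from the same position. These 4 genes and HARS2 were the mitochondrial members bound in parental cells.

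The other 11 mitochondrial enzymes had peaks in TKO alone. NARS2, the asparagine enzyme, had 2.96 and 3.14 RPM at a percentile of 96.4 and 95.1, a level that overlapped those of members bound in parental cells. VARS2, for valine, had 1.96 and 2.07. YARS2, for tyrosine, had 1.85 and 1.84, with summits 549 and 543 bp after the TSS, the farthest downstream of any member. AARS2, CARS2, LARS2, PARS2, RARS2, SARS2 and TARS2 lay between 1.35 and 2.76 RPM. By fold, AARS2 had a percentile of 2.28 and 71.7, and RARS2 55.4 and 22.8. The lowest percentile of any member was that of AARS2 in TKO replicate 1 and that of RARS2 in replicate 2. IARS2 was the weakest member by RPM, with 15 and 16 summit reads. Its summits were 479 bp apart, so the 2 TKO libraries did not share the same peak there. Parental peaks lay near these genes only at IARS2, within 5 kb in replicate 2, and at VARS2, within 10 kb in both replicates.

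Members bound in TKO alone had a lower median in TKO than those also bound in parental cells, as over all genes, and the ranges of the members overlapped. In TKO replicate 1 the 16 members without a parental peak had a median of 1.91 RPM, with a range from 0.752 to 2.96. The 20 members with peaks in both parental libraries had a median of 4.11, with a range from 2.26 to 9.53. In TKO replicate 2 the medians were 2.30 and 4.10. Over all genes of the same kinds the medians were 1.25 and 3.41 in replicate 1, and 1.61 and 3.84 in replicate 2. For scale, the least significant parental peaks of any gene, those with a −log10 q-value under 3, had a median of 0.946 and 0.947 RPM. The highest of them had 1.51 and 1.62. RPM also grows with the width to which reads were taken as extended, which was larger in TKO lists. These parental values therefore cannot be set directly against TKO RPM.

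The scaffold proteins AIMP1, AIMP2 and EEF1E1 hold several cytosolic synthetases in the multi-synthetase complex. AIMP2 had 3.14, 3.25, 7.77 and 8.21 RPM, at a percentile of 98.4 or more in each library. EEF1E1 had 2.35, 2.07, 5.72 and 7.98. AIMP1 was weaker, with 1.06, 0.901, 2.71 and 3.99. Of the 7 listed synthetases of the complex, EPRS1, IARS1, KARS1, LARS1, MARS1, QARS1 and RARS1, promoter peaks were called at 6, 4, 7 and 7. Among the other 12 cytosolic synthetases they were called at 8, 8, 12 and 12. This grouping was chosen after the values were seen.

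Where a promoter was bound in all 4 libraries, its TKO summits had more reads per M reads of depth than its parental summits. Over these 20 members the median was 1.48, 1.51, 4.11 and 4.10 RPM. The group means were 1.49 ± 0.0241 and 4.11 ± 0.00531 (SD, n = 2 each; exact permutation p = 0.333). The median ratio of TKO to parental RPM was 2.51, 2.96, 2.39 and 2.71 in the 4 pairs of libraries, a mean of 2.64, and was above 1 at every member in every pair. All genes bound in both libraries of a pair had medians of 2.37, 2.68, 2.22 and 2.55, so the members lay close to the general difference. Depth was solved with the extension length taken for each list, so RPM is proportional to that length. It was 140 and 151 bp in parental libraries and 182 and 201 bp in TKO. Divided by it, the median ratios in the 4 pairs were 1.93, 2.06, 1.98 and 2.04. By the authors' fold the mean ratio was 2.19, and EPRS1 was the exception to a higher TKO value, with a ratio of 0.917 for parental replicate 2 against TKO replicate 2.

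The median member peak also ranked above that of all bound genes, apart from mitochondrial members in parental cells. The median percentile was 65, 82.4, 91.8 and 90.8, beside 56.7, 56.6, 71 and 70.6 for all genes with a promoter peak. The means were 73.7 ± 12.3 and 91.3 ± 0.673 (SD, n = 2 each), a difference of 17.6 percentile points (exact permutation p = 0.333). The medians of all genes were higher in TKO as well, and the lists differ in length, so it does not measure a change in binding. The difference rested in part on parental replicate 1, since without that library it was 8.92, and it was 26.3 without parental replicate 2. With lists of 3720 peaks each it was 0.833, within the spread between replicates. Cytosolic members had medians of 66.8, 82.4, 95.6 and 92.4, mitochondrial members 37.8, 53.8, 85.2 and 80. Both parental medians of the mitochondrial members, over 5 peaks each, lay below those of all genes. Between the TKO lists the order of the 38 members was similar (Spearman's rho 0.876 across genes), and between the parental lists less so (0.586 over 20 members). Genes are not replicates, and HARS1 and HARS2 share their peak in each list.

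Most summits at the members lay close to an annotated TSS, which was not always the main one. At WARS1, on the minus strand of chromosome 14, the TKO summits were at 100842520 and 100842647. They lay upstream of the main TSS at 100841684, near another start site, in a peak shared with WDR25. Summits lay within 250 bp of the nearest start site at 20 of 22, 19 of 20, 34 of 38 and 35 of 38 members, or 90.9%, 95%, 89.5% and 92.1%. Over all bound genes the shares were 71.4%, 72.2%, 64.7% and 65.9%. More member summits fell after the start site, 54.5%, 60%, 68.4% and 60.5%, than over all bound genes, where the shares were 38%, 32.5%, 44.2% and 43.5%. Summits before the main transcript numbered 8, 9, 11 and 16, those in its untranslated exon sequence 3, 5, 13 and 9, those in coding sequence 6, 3, 4 and 6, and those in introns 5, 3, 10 and 7. Member peaks had a median width of 251, 301, 764.5 and 722.5 bp, and those of all bound genes 243, 241, 468 and 475 bp.

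**Figure D3:**
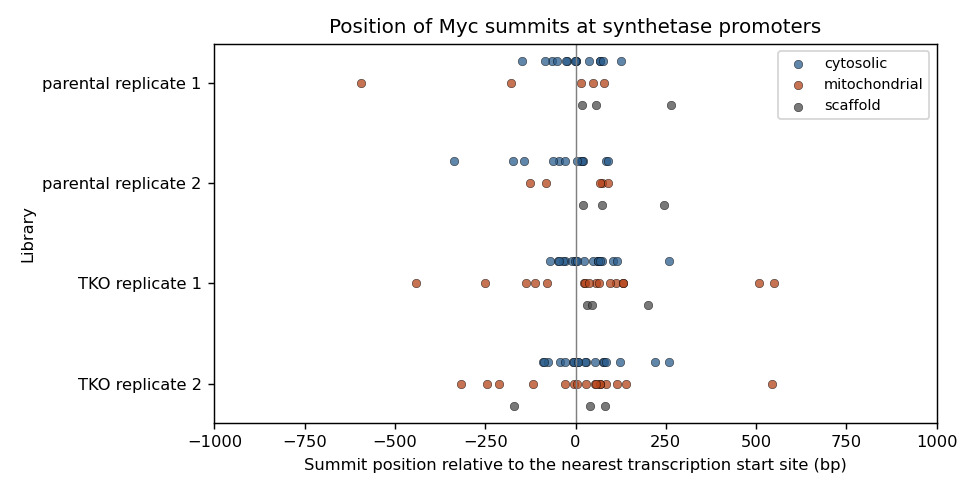
Distance from each member's Myc summit to the nearest TSS (bp, horizontal; positive values lie downstream) in each library (rows), with 1 point per gene coloured by class. Points crowd within 250 bp of the start site in each row, and 34 of 38 lie there in TKO replicate 1.

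An E-box stood next to the summit at a minority of members, a share above that of all bound genes in 2 libraries and below it in 2. CACGTG lay within 50 bp of the summit at 3 of 22, 4 of 20, 5 of 38 and 2 of 38 members, or 13.6%, 20%, 13.2% and 5.26%. Over all bound genes the shares were 21.6%, 18.5%, 9.14% and 8.09%. In TKO replicate 1 the 5 members were VARS1, EARS2 and EEF1E1, shown above, with CARS2 and NARS2. The parental mean of 16.8% ± 4.50 and the TKO mean of 9.21% ± 5.58 (SD, n = 2 each) differed by -7.61 percentage points (exact permutation p = 0.333). The difference was -4.43 without parental replicate 2, -11.6 without TKO replicate 1 and -3.66 without TKO replicate 2, so single libraries set its size. With the motif counted anywhere in the peak the shares were 22.7%, 35%, 26.3% and 23.7%, and the difference was -3.86 (exact permutation p = 1). The variant CACGCG, on either strand, lay within 50 bp at 7, 2, 4 and 7 members, or 31.8%, 10%, 10.5% and 18.4%. The shares over all bound genes were 15.3%, 13.7%, 10.1% and 9.5%. The member shares of parental and TKO cells had overlapping ranges.

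A larger share of member summits than of all summits had CARE close by, and more member promoters held it (23.7% beside 2.48%). It was within 50 bp of the summit at 4 of 22, 3 of 20, 4 of 38 and 6 of 38 members, or 18.2%, 15%, 10.5% and 15.8%. The shares over all bound genes were 0.703%, 1.1%, 0.617% and 0.538%. Within 100 bp of the summit it was found at 7 of 19 cytosolic members in each TKO library (36.8%), beside 1.2% and 1.09% of all bound genes. Of the 8 cytosolic members with CARE in the promoter window 6 had a peak in all 4 libraries, and of the 11 without it 6 did. The groups had a median percentile of 98.5 and 88.6 in TKO replicate 1, and 98.1 and 88.3 in replicate 2. That window surrounds the main TSS, and EPRS1, WARS1 and mitochondrial FARS2, without CARE in it, held CARE elsewhere in a TKO peak. Only 6 of the 9 members with CARE in the window had it within 100 bp of the summit in each TKO library. The 7 cytosolic members above therefore include 1 without it in the window. The mitochondrial element counted in the window, at YARS2, lay 743 and 737 bp from the TKO summits. CARE lies close to the TSS in these promoters, and so do the summits, so nearness to CARE and nearness to the TSS cannot be told apart.

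**Figure D4:**
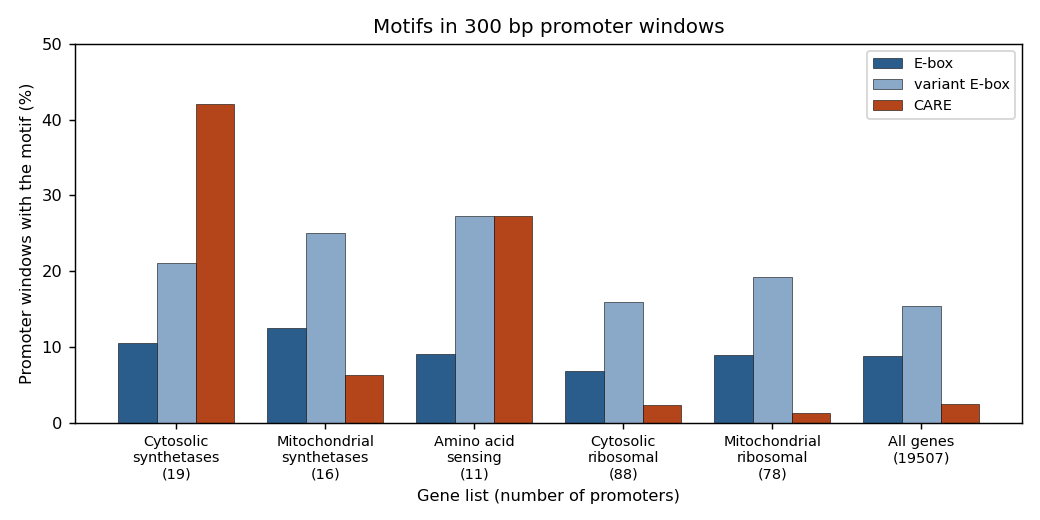
Share of promoter windows of 300 bp that hold each motif on either strand (%, vertical axis), by gene list with the number of promoters in brackets. CARE stands at 42.1% for cytosolic synthetases, 27.3% for amino acid sensing genes and 2.48% for all genes, while the E-box is near 10% in the synthetase lists and 8.76% overall.

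The base composition of the promoters was close to that of all promoters. Their median GC content was 62.2%, beside 63.7% for all promoters, and their median ratio of observed to expected CpG was 0.813, beside 0.778. The E-box was in 10.5% of member windows and 8.76% of all, and the variant E-box in 21.1% and 15.4%. At 13 of 38 members (34.2%) the peak in TKO replicate 1 was also a promoter peak of another protein-coding gene, beside 24.4% of all 9719 bound genes. Examples were YARS1 with S100PBP, SARS2 with MRPS12, EARS2 with UBFD1 and FARS2 with LYRM4. When each peak was given only to the gene of its nearest start site, 20, 19, 35 and 35 members had one. The shares of all protein-coding genes were then 10.4%, 10.9%, 44.6% and 45%. Cytosolic counts stayed at 14, 12, 19 and 19, while mitochondrial counts became 3, 4, 13 and 14 of 16, and scaffold counts 3, 3, 3 and 2.

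Genes around the synthetases were described as well, with no test between lists. Among 17 genes that prepare, carry or correct tRNA, 7, 7, 17 and 16 had a promoter peak (41.2%, 41.2%, 100% and 94.1%), beside 12.2%, 12.9%, 49.1% and 49.7% of all genes. The 7 bound in all 4 libraries included EEF1A1, the elongation factor that takes charged tRNA to the ribosome, with 2.12, 1.94, 7.12 and 8.21 RPM, and XPOT, the tRNA export receptor, with 1.17, 1.31, 3.36 and 3.22. EEFSEC was the gene without a peak in TKO replicate 2. GATB and QRSL1, which with GATC form the mitochondrial glutamine transamidase, had TKO peaks alone, while GATC was bound in all 4.

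Among 11 genes of amino acid sensing, 3, 3, 10 and 10 had a promoter peak (27.3%, 27.3%, 90.9% and 90.9%), beside the same shares of all genes. ATF4 itself had 1.21, 1.08, 3.06 and 4.37 RPM, and GCN1 and EIF2S1 were the other genes bound in all 4 libraries. ASNS, the asparagine synthetase gene and a known ATF4 target, had 2.66 and 3.07 in TKO alone. SESN2 had no promoter peak in any library. Genes called in TKO alone, in both replicates, were 9 of 17 and 7 of 11 in these lists, beside 16 of 38 synthetase and scaffold genes and the 29.8% of all genes given above.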

How the data were processed

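The authors aligned single-end Myc ChIP-seq reads to hg19 with Novoalign 3.08.02 and called peaks per library with MACS2 2.1.1.20160309, input chromatin serving as control. Their methods stated a cutoff on p of 0.01 and mfold limits of 5 and 50, while their results stated a cutoff on q of 0.01. Handling of duplicate reads was not given in the sources used here. Each of the 4 deposited lists gives, per peak, a score, a fold enrichment (the ratio of the pileup at the summit to its local background) and, on the −log10 scale, the authors' p-value and q-value. The lowest −log10 q-value was 2.03 to 2.07. The 2 input samples had no peak list analysed here.

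Summit reads were solved from fold and p-value, and a whole number matched within 0.002 on the −log10 p scale for 100% of peaks in each list. Depth assumed a genome of 2700000000 bases and an extension length equal to the narrowest peak. Start sites were those of basic protein-coding transcripts of GENCODE v44 lifted to GRCh37. Motifs were the E-box CACGTG, its variant CACGCG and the CARE core TGATGNAA, on either strand, each counted on its own even where matches could share bases. The steps were tested on simulated summits.

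Groups and replicate numbers came from the titles. The study calls the replicates biological; p-values measure only the spread between these libraries. Parental and TKO libraries, with 1 value each, entered an exact two-sided permutation test. With 6 splits the smallest p is 0.333, so none could pass 0.05. Members and lists were chosen with earlier results of these data known. Values per library are given for the 10 cytosolic and 8 mitochondrial members of highest mean TKO percentile, every member with a parental peak, the scaffold genes and members that share a peak. Other members named were chosen after their values were seen, as were the genes named from the other lists. Alternatives were other TSS windows, thresholds of 5 on fold or −log10 q-value, lists of equal length, nearest-TSS assignment, all transcripts, other motif windows, other rankings, other scalings, each library left out, and a replicate block. Work was done in Python 3.11.15 with pandas 2.3.3, numpy 2.4.6, pysam 0.24.0, scipy 1.17.1, matplotlib 3.10.9 and samtools 1.23.1.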

Additional observations from a re-analysis of the deposited data

How the results depend on the processing

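Of 62 alternative values of the 6 group comparisons, 5 moved and 0 reversed; the other 57 kept their direction and stayed within 1.5 times the reported ratio or 1 SD of the reported difference, which is wide for percentile and E-box share. With lists of equal length the ratio of members bound moved to 1.12, that of mitochondrial members to 1.56, and the difference in percentile to 0.833. The cytosolic ratio fell to 1.04 (exact permutation p = 1). It is counted among the 57 only because it stayed within 1.5 times the reported 1.46. With a fold of at least 5 the mitochondrial ratio moved to 5.00, from 2 and 4 parental members. With a motif window of 100 bp the difference in E-box share moved to -14.5 percentage points, and with the motif anywhere in the peak it was -3.86 (exact permutation p = 1). Leaving out each library in turn gave ratios of 1.73 to 1.90 for all members, 1.36 to 1.58 for cytosolic and 3.20 to 3.20 for mitochondrial members. It gave percentile differences of 8.92 to 26.3, E-box differences of -11.6 to -3.66 and read ratios of 2.45 to 2.84. Replicate numbers did not pair the libraries: over 1843 genes bound in all 4, the replicate deviations of parental and TKO reads correlated at r = 0.0722. Over the 20 members bound in all 4 the value was r = -0.504. With a replicate block the values were 1.81, 1.47 and 3.20 for the counts, 17.6 and -7.61 for percentile and E-box share, and 2.61 for reads, with p = 0.5 by exact sign flips, the smallest value 2 pairs allow. No result passed 0.05 in the reported or any alternative form, so these comparisons rest on size and overlap. Reads could be recovered only where a peak was called, so members without a parental peak have no parental value.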
